A study of Saccharomyces cerevisiae with 21 samples.

Results

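Yeast moves one-carbon units on folate through a cytosolic and a mitochondrial branch, and 8 genes of that system were followed across 21 RNA-seq libraries of Saccharomyces cerevisiae. They are MIS1, SHM1, SHM2, GCV1, GCV2, GCV3, MTD1 and ADE3, and each matched 1 of the 7123 features that hold values in the deposited table. The genes were named by symbol, and they were chosen with earlier results of these data known. In series 1 the laboratory strain BY4741 was set beside the mutants BY4741ΔP, called ΔP below, and Tpho84-Tcyc1, each with 3 cultures. In series 2 there were 3 cultures each of BY4741ΔU, called ΔU, and of ume6Δ, and 2 cultures each of BY4741, pho4Δ and pho84Δ. The title of the study concerns transcription of phosphate genes, both protein-coding and non-coding, and the question addressed here is how the RNA of the 8 genes differed between each strain and BY4741 of its own series. What is altered in ΔP, in ΔU and in Tpho84-Tcyc1 is not stated by the labels, and no further genotype, clone number or strain construction is given for any group. In all groups the cells grew at 30 °C in minimal medium with 7.2 mM potassium phosphate, 50 mM KCl, leucine, histidine, methionine and uracil. All cultures were harvested at an A620 of 0.5. The cultures of a strain were started from 1 overnight culture, and the spread that the p-values rest on is the spread among those sister cultures.

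In the cytosol, serine hydroxymethyltransferase (SHM2) passes a carbon from serine to tetrahydrofolate, and the trifunctional C1-tetrahydrofolate synthase (ADE3) interconverts methylene-, methenyl- and formyl-folate. A separate NAD-dependent methylene-tetrahydrofolate dehydrogenase (MTD1) works beside ADE3. The mitochondrion has its own enzymes for both steps, SHM1 and MIS1, and it holds the glycine cleavage complex. That complex consists of the T protein (GCV1), the P protein (GCV2), the lipoyl-carrying H protein (GCV3) and the dihydrolipoamide dehydrogenase LPD1, which also serves other complexes. Formyl-folate from the pathway feeds purine synthesis, and several of these genes share the activators Bas1, Pho2 and Gcn4 with the purine and amino acid genes, while the GCV genes answer to glycine.

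Stretches upstream of 4 of the genes are shown because these genes differ in their response below and in their match to the binding core of Bas1 and Gcn4. Each is 150 bases, from 300 to 151 bases before the start codon, on the strand of the gene, from RefSeq build R64; the genome build behind the deposited table is not given in the sources used here. Capitals mark TGACTC or its reverse complement GAGTCA, and CTTCTT or AAGAAG, the core of the glycine response element. In GCV2, one TGACTC and one CTTCTT share letters, so that they form a single run of capitals.
SHM2, chrXII:259552-259701, minus strand: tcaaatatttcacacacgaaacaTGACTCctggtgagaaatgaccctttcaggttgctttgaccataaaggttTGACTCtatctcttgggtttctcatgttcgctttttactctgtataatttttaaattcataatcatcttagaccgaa
MIS1, chrII:410754-410903, plus strand: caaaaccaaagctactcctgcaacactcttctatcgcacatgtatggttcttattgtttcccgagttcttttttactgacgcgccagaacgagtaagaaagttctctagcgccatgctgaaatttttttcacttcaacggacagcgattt
MTD1, chrXI:590095-590244, plus strand: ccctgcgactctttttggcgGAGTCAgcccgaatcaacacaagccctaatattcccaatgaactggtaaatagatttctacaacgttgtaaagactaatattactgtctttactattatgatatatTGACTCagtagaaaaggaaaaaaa
GCV2, chrXIII:637200-637349, plus strand: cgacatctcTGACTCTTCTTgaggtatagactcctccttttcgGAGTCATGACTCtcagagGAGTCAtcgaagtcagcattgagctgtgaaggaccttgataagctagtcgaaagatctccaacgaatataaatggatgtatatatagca
Over the whole 300 bases before the start codon and on both strands, TGACTC was found at 6 of the 8 genes, with MIS1 and SHM1 as the exceptions. It occurred in 7.77% of 6001 such windows in the genome. GCV2 held 4 copies, SHM2, GCV3 and MTD1 held 2 each, and GCV1 and ADE3 held 1 each. CTTCTT was found at SHM2, GCV1, GCV2, GCV3 and MTD1, against 35.8% of all windows. CACGTG, the core bound by Pho4, occurred at ADE3 and at no other of the 8 genes, against 3.57% of windows. GGCGGC, within the core bound by Ume6, occurred at none of the 8, against 5.2% of windows. These matches describe the letters in those windows and are no evidence of binding.

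All 8 genes were well measured, with at least 2090 reads behind every value, and none overlaps another annotated gene in R64. MIS1 lies at chrII:411054-413981, SHM1 at chrII:736264-737736, SHM2 at chrXII:257992-259401, GCV1 at chrIV:484163-485365, GCV2 at chrXIII:637500-640604, GCV3 at chrI:57950-58462, MTD1 at chrXI:590395-591357 and ADE3 at chrVII:905934-908774, each as 1 coding exon. The coding sequences of the paralogs MIS1 and ADE3 were 66.2% identical over their alignment, with at most 20 identical bases in a row, and those of SHM1 and SHM2 were 63% identical, with at most 22 in a row. Library depth was 10.98 to 49.8 Mreads, and the levels below are RPM (mapped reads scaled to 1 Mread per library). The strain checks matched the labels, with 0 to 4 reads of UME6 in ume6Δ, 1 or 2 of PHO4 in pho4Δ and 2 of PHO84 in each pho84Δ library. PHO84 RNA was also near 0 in pho4Δ, at a mean of 0.067 RPM against 133.1 in BY4741 of series 2. Its group means were 282.6 RPM in ΔU and 60.7 in ume6Δ. In series 1 they were 122.5 RPM in BY4741, 371 in ΔP and 1.15 in Tpho84-Tcyc1.

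Per kilobase of coding sequence, the cytosolic enzymes of the pathway were more abundant than their mitochondrial partners in all 8 groups. In BY4741 of series 2 (n = 2), SHM2 stood highest at 1388 ± 61.4 RPM per kb (mean ± SD), followed by GCV3 at 642.1 ± 29.1, ADE3 at 428.7 ± 12.6 and GCV1 at 312.4 ± 1.51. MTD1 followed at 201.3 ± 1.72, then GCV2 at 170.4 ± 5.22, SHM1 at 156.1 ± 3.56 and MIS1 at 144.9 ± 8.6. GCV1, GCV2 and GCV3 were thus not at equal RNA levels per kb. Their order rests on the division by coding length. In RPM GCV2 stood highest of them at 529, followed by GCV1 at 375.8 and GCV3 at 329.4. Between the lowest and the highest of the 21 libraries the level in RPM moved 2.48-fold for MIS1, 1.96-fold for GCV3, 1.88-fold for SHM2 and 1.73-fold for MTD1. SHM1 moved 1.6-fold, GCV2 1.51-fold, ADE3 1.41-fold and GCV1 1.32-fold.

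**Figure D1:**
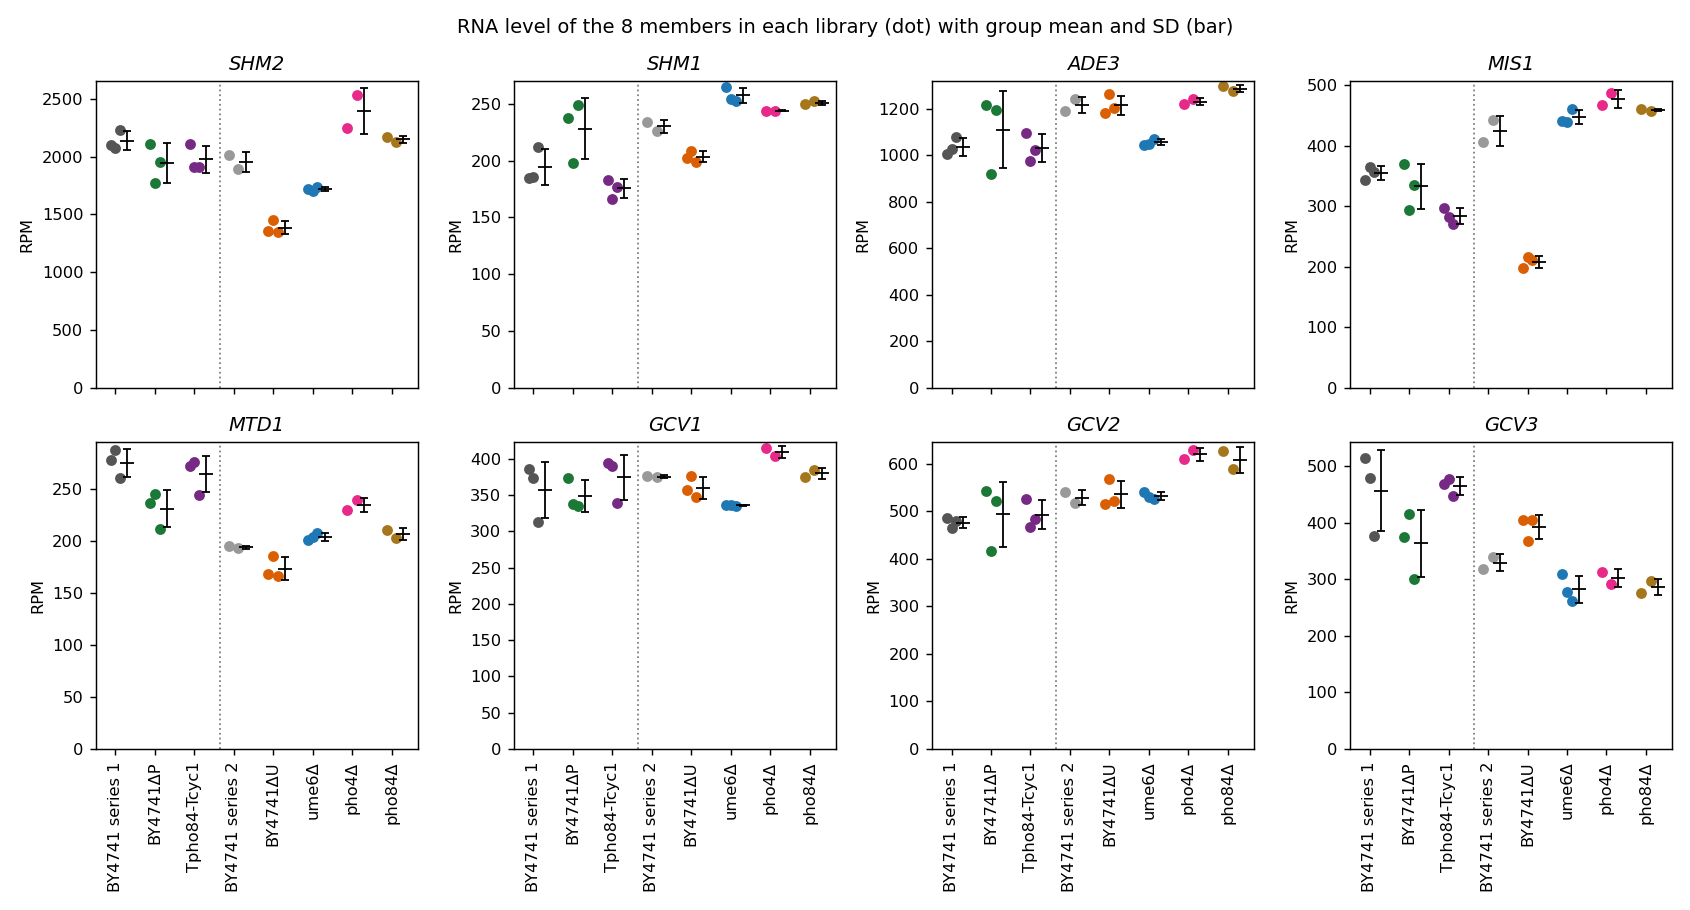
RNA level in RPM (vertical axes, from 0) of each of the 8 genes in every library (dots) of the 8 groups, with group mean and SD (bars); the dotted line divides series 1 from series 2. MIS1 and SHM2 are lowest in the 3 ΔU libraries, at 197 to 216 and 1350 to 1449 RPM.

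The clearest change was in ΔU, where MIS1 and SHM2, one enzyme of each compartment, were lower than in BY4741. MIS1 was at 406 and 442 RPM in the BY4741 libraries and at 197, 216 and 210.2 RPM in the ΔU libraries. Every ΔU library lay far below both BY4741 libraries, and ΔU was the lowest of the 8 groups. The fall was 1.03 on the log2(RPM + 1) scale used for all folds here (-1.03, SE 0.06, adjusted p = 5.91e-08, limma with Benjamini-Hochberg adjustment over all genes tested). SHM2 was at 2018 and 1896 RPM in BY4741 and at 1355, 1449 and 1350 RPM in ΔU. Here too the groups did not overlap and ΔU was lowest of all groups (-0.50, SE 0.07, adjusted p = 5.46e-05, limma). Both calls held in all 12 alternatives tried, which were other scalings, tools and filters, another control and left-out libraries, with folds from -1.17 to -0.77 for MIS1 and from -0.64 to -0.45 for SHM2.

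With limma, 5 of the 8 genes passed adjusted p under 0.05 in ΔU against BY4741, and 49.7% of all 5840 genes tested passed too, so the count itself is near the background. Genes that fell were 4 of the 8, against 13.2% of all genes, and the 1 that rose compares with 36.5%. Because the 8 were chosen with earlier results of these data known, these shares are only descriptive. Over all genes the split between higher and lower calls depended on the scaling, whereas of the 8 genes only GCV2, which did not pass, changed sign after TMM. In ΔU the median over all genes was +0.15 in RPM and +0.02 after TMM rescaling, which sets libraries to a common level over most genes, and the split of calls went from 2133 higher and 771 lower to 1358 higher and 1396 lower. The 8 genes had a median of -0.11 in RPM and -0.25 after TMM, by which 6 fell and none rose.

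The smaller changes in ΔU went in both directions. SHM1, the mitochondrial hydroxymethyltransferase, was at 234 and 226 RPM in BY4741 and at 202, 209 and 199 RPM in ΔU. The groups did not overlap (-0.18, SE 0.055, adjusted p = 0.0159, limma), but the call was lost without BY4741 library 4 (adjusted p = 0.0878) and when the fit held only these groups (0.116). MTD1 was at 195 and 193 RPM in BY4741 and at 168, 186 and 166 RPM in ΔU. The ΔU values were all lower (-0.16, SE 0.06, adjusted p = 0.0433, limma), and the call remained in 1 of 5 fits that left out a library, although TMM gave -0.30 with adjusted p = 0.000516. GCV3 was at 319 and 340.0 RPM in BY4741 and at 405, 368 and 405 RPM in ΔU. The H protein gene thus moved up without overlap (+0.25, SE 0.08, adjusted p = 0.0149, limma), but after TMM the difference was +0.11 with adjusted p = 0.295, and without BY4741 library 4 adjusted p was 0.104.

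ADE3, GCV1 and GCV2 did not pass in ΔU. ADE3, the cytosolic counterpart of MIS1, was at 1193 and 1243 RPM in BY4741 and at 1184, 1263 and 1203 RPM in ΔU. These ranges overlap, and the log2 difference was -0.00 (SE 0.06) in RPM and -0.14 after TMM (adjusted p = 0.0477, limma). GCV1 differed by -0.06 (SE 0.055, adjusted p = 0.376, limma), which became -0.20 after TMM (adjusted p = 0.00485), and GCV2 by +0.02 (SE 0.06, adjusted p = 0.833), which turned to -0.12 after TMM (adjusted p = 0.085).

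**Figure D2:**
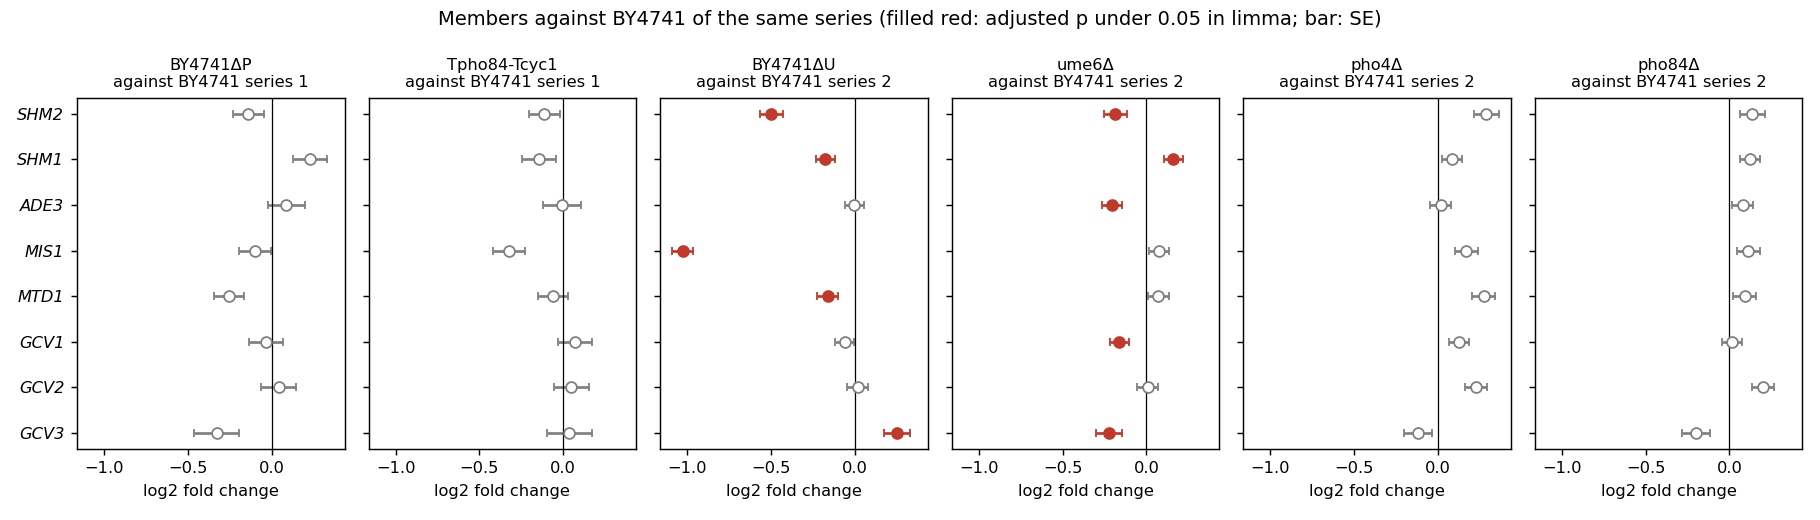
Log2 fold changes (horizontal axes, on log2(RPM + 1)) of the 8 genes in the 6 mutants against BY4741 of the same series; points are limma estimates, bars 1 SE, and filled red points have adjusted p under 0.05. MIS1 in ΔU, at -1.03, lies farthest from 0, and pho4Δ, pho84Δ, ΔP and Tpho84-Tcyc1 have no filled point.

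Within each library the mitochondrial RNA can be set over the cytosolic one, and in ΔU the ratio moved in opposite ways for the 2 enzyme steps. The MIS1 to ADE3 ratio per kb was 0.331 and 0.345 in BY4741 of series 2 and lay between 0.161 and 0.17 in ΔU, between 0.406 and 0.416 in ume6Δ and between 0.371 and 0.381 in pho4Δ. The ratio was thus lowest in ΔU and highest in ume6Δ, each without overlap with BY4741. SHM1 to SHM2 ran from 0.111 to 0.114 in BY4741, from 0.138 to 0.143 in ΔU and from 0.139 to 0.147 in ume6Δ. Both mutants lay above BY4741 here, while pho4Δ lay below it at 0.092 and 0.104. In series 1, MIS1 to ADE3 was 0.321 to 0.344 in BY4741, 0.272 to 0.31 in ΔP and 0.256 to 0.281 in Tpho84-Tcyc1, so both mutants lay below BY4741 without overlap, as ΔU did in series 2. For SHM1 to SHM2 the ΔP libraries, at 0.107 to 0.122, lay above BY4741 at 0.084 to 0.0911, and Tpho84-Tcyc1 overlapped BY4741. No test was made of these ratios.

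**Figure D3:**
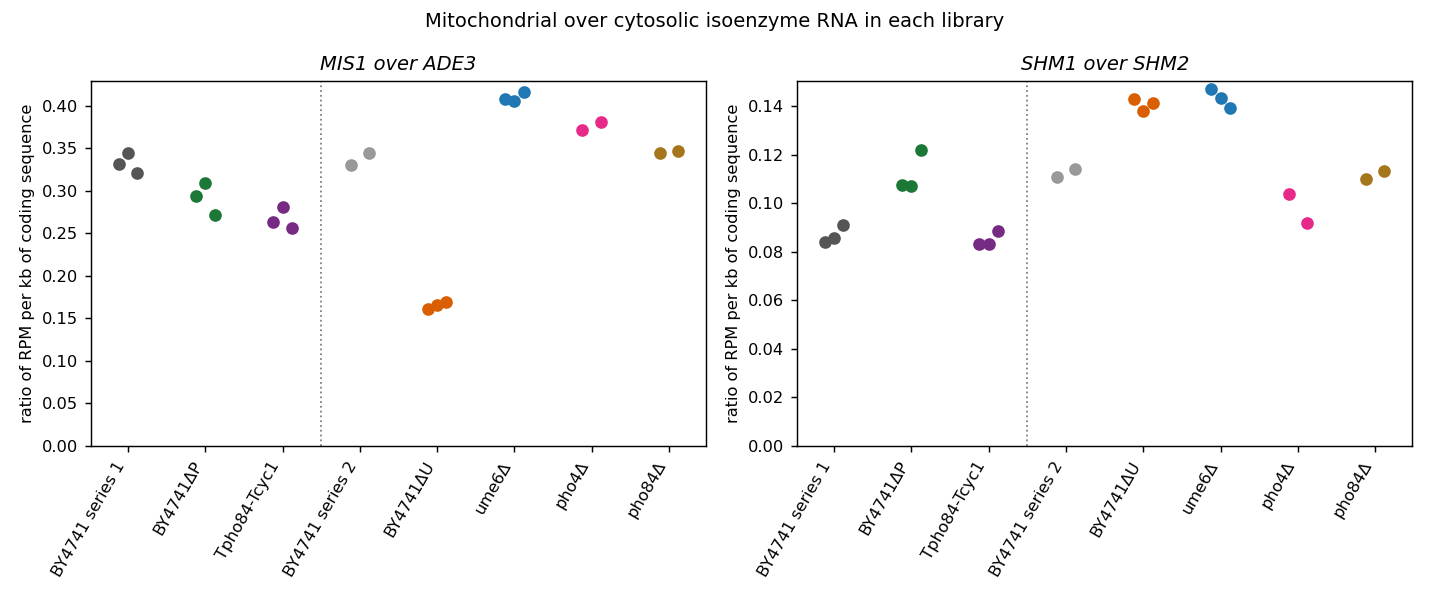
Ratio of mitochondrial to cytosolic RNA per kb of coding sequence (vertical axes, from 0) in every library (dots) of the 8 groups, MIS1 over ADE3 on the left and SHM1 over SHM2 on the right; the dotted line divides the series. ΔU is lowest for MIS1 over ADE3, at 0.161 to 0.17, and ΔU and ume6Δ are highest for SHM1 over SHM2.

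The low MIS1 and SHM2 of ΔU were also tested directly against the other mutants of series 2. In ume6Δ, MIS1 was at 440.4, 439.6 and 459.6 RPM, above every ΔU library (+1.10, SE 0.055, adjusted p = 1.16e-09, limma), and SHM2 was at 1724, 1701 and 1736 RPM (+0.31, SE 0.06, adjusted p = 0.000745). SHM1 was higher in ume6Δ than in ΔU by 0.34 (adjusted p = 5.86e-05) and MTD1 by 0.23 (adjusted p = 0.00321), whereas GCV3 was lower by 0.47 (-0.47, adjusted p = 6.11e-05). These 5 calls held in all 13 alternatives. ADE3 differed by -0.20 (adjusted p = 0.00463), but after TMM adjusted p was 0.071. In all, 6 of the 8 passed, against 48.8% of 5840 genes, and TMM turned the split over all genes from 1174 higher and 1677 lower to 1627 higher and 1188 lower.

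Against pho4Δ and pho84Δ, in contrasts added after the ΔU levels were seen, MIS1 was lower in ΔU by 1.20 (-1.20, adjusted p = 9.82e-09, limma) and 1.14 (-1.14, adjusted p = 2.72e-08), and SHM2 by 0.79 (-0.79, adjusted p = 7.35e-07) and 0.64 (-0.64, adjusted p = 7.01e-06). GCV3 was higher in ΔU by 0.37 and 0.45 (adjusted p = 0.00105 and 0.000285). MTD1, the cytosolic dehydrogenase, was lower by 0.44 (-0.44, adjusted p = 5.46e-05) against pho4Δ and by 0.25 (-0.25, adjusted p = 0.0041) against pho84Δ, the latter call being lost without pho84Δ library 1 (adjusted p = 0.0557). SHM1 was also lower in both, by 0.26 (-0.26, adjusted p = 0.0012) and 0.30 (-0.30, adjusted p = 0.000467). The calls of GCV1 (-0.19) and GCV2 (-0.21) against pho4Δ were each lost without 1 pho4Δ library, with adjusted p = 0.0922 for GCV1 without library 1 and 0.0801 for GCV2 without library 2. Against pho84Δ, GCV2 (-0.18) lost its call without ΔU library 3 (adjusted p = 0.0608) or pho84Δ library 1 (0.208). In these contrasts 7 and 6 of the 8 passed, against 52.6% and 49.8% of all genes. The comparisons of ΔU share its libraries, so they are not independent of each other. After TMM, GCV3 kept its call in both, whereas it lost it in the contrast with BY4741.

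In ume6Δ, which lacks the repressor Ume6, the 8 genes moved little. With limma 5 of the 8 passed, against 34.4% of 5840 genes, and the folds lay between -0.22 and +0.16. ADE3 was at 1046, 1051 and 1071 RPM, below the BY4741 libraries at 1193 and 1243 (-0.20, SE 0.06, adjusted p = 0.0131), and kept the call in 4 of 5 fits that left out a library; without BY4741 library 5 adjusted p was 0.111. GCV1 was at 336, 337 and 335 RPM against 377 and 374.5 (-0.16, SE 0.055, adjusted p = 0.0362). GCV3 was at 309, 277 and 262 RPM against 319 and 340.0 (-0.22, SE 0.08, adjusted p = 0.0379). SHM2 differed by -0.18 (SE 0.07, adjusted p = 0.0494) and SHM1 by +0.16 (SE 0.055, adjusted p = 0.0342). None of these groups overlapped BY4741, but leaving out a library ended the call in all 5 fits for GCV1, SHM1 and SHM2 and in 4 of 5 for GCV3. SHM1, at 265, 254.5 and 252 RPM, also missed the threshold after TMM. MIS1 (+0.08, adjusted p = 0.384), MTD1 (+0.07, adjusted p = 0.409) and GCV2 (+0.01, adjusted p = 0.929) did not pass. Over all genes, TMM changed the split from 1349 higher and 662 lower to 1207 higher and 941 lower.

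Loss of the phosphate regulator Pho4 or the transporter Pho84 gave no call among the 8 genes in limma. PHO84 RNA was near 0 in both groups, at a mean of 0.067 RPM in pho4Δ and 0.11 RPM in pho84Δ. In pho4Δ the largest differences were in SHM2, at 2252 and 2533 RPM (+0.29, SE 0.075, adjusted p = 0.175), MTD1, at 229.8 and 239 RPM (+0.27, SE 0.07, adjusted p = 0.171), and GCV2, at 610.2 and 629.9 RPM (+0.23, SE 0.07, adjusted p = 0.246). All 3 lay above both BY4741 libraries, at 2018 and 1896, 195 and 193, and 540.4 and 518 RPM. DESeq2 called 3 of the 8 and edgeR none. In limma 4 of the 8 had an unadjusted p under 0.05, against 663 of all 5840 genes. Only 0.223% of all genes passed in limma in pho4Δ and 0.291% in pho84Δ, while DESeq2 called 71 of 5840 genes in pho4Δ. In pho84Δ the folds ran from -0.20 for GCV3 to +0.20 for GCV2, and adjusted p was 0.293 or more. There 2 of the 8 had an unadjusted p under 0.05, against 686 of 5840 genes. Neither edgeR nor DESeq2 called any of the 8. GCV2 was at 626.9 and 589 RPM there, again above both BY4741 libraries. The 2 deletions set against each other gave folds from -0.06 to +0.18 with adjusted p of 0.527 or more. No call was made among the 8 in limma, edgeR or DESeq2, against 0.497% of all genes called in limma. The unadjusted p was under 0.05 for 1 of the 8 and for 389 of 5840 genes. Groups of 2 cultures limit what could be detected here.

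Series 1 gave no call among the 8 genes in the limma fit of all its libraries, and MIS1 in Tpho84-Tcyc1 lay closest to the threshold. MIS1 was at 343, 364 and 357 RPM in BY4741 and at 297.5, 282 and 270.5 RPM in Tpho84-Tcyc1. All 3 construct libraries were lower (-0.32, SE 0.09, adjusted p = 0.0549), and the call was made after TMM (adjusted p = 0.0179), by edgeR (0.0206) and by DESeq2 (0.000169), but in none of the 6 fits that left out a library. Calls covered 7.97% of 5775 genes in this comparison. For 1 of the 8 and for 1375 of all 5775 genes the unadjusted p was under 0.05. Apart from MIS1, the other 7 folds lay between -0.14 (SHM1) and +0.07 (GCV1). TMM turned the split over all genes from 255 higher and 205 lower to 160 higher and 324 lower.

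In ΔP the replicates varied, and the calls depended on which library was left out. MTD1 was at 277, 287 and 261 RPM in BY4741 and at 237, 245 and 211 RPM in ΔP, with no overlap (-0.25, SE 0.09, adjusted p = 0.0907, limma). SHM1 was at 185, 186 and 212 RPM in BY4741 and at 237.5, 198 and 249 RPM in ΔP, where library 2 fell inside the BY4741 range (+0.23, SE 0.10, adjusted p = 0.168). GCV3, at 515, 479.9 and 376 RPM in BY4741 and 375.5, 416 and 299.8 in ΔP, overlapped too (-0.33, SE 0.13, adjusted p = 0.132). Of all 5775 genes limma called 9.47%, and of the 8 none. An unadjusted p under 0.05 was found for 3 of the 8 and for 1646 of all 5775 genes. For the 8, edgeR called none and DESeq2 1, where DESeq2 called 910 of all genes. Without ΔP library 2, limma called 4 of the 8, namely SHM1 (+0.33, adjusted p = 0.0133), MTD1 (-0.30, adjusted p = 0.0208), GCV3 (-0.43, adjusted p = 0.0261) and ADE3 (+0.22, adjusted p = 0.0435), and calls over all genes rose to 1880. Every other fit that left out a library called none of the 8. Calls over all genes moved in those fits too, down to 63 without BY4741 library 2. TMM changed the split over all genes from 335 higher and 212 lower to 223 higher and 304 lower.

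ΔP set directly against Tpho84-Tcyc1 gave no limma call among the 8, against 0.312% of all genes in limma. Of the 8, 3 had an unadjusted p under 0.05, as did 513 of all 5775 genes. For the 8, edgeR called none and DESeq2 1, where DESeq2 called 78 of all 5775 genes. SHM1 differed most (+0.37, SE 0.10, adjusted p = 0.263), with 183, 166 and 177 RPM in Tpho84-Tcyc1, below all ΔP libraries. A fit with the culture number as a block called 52 genes in place of 18, none of them among the 8. Without ΔP library 2, 548 genes were called, with SHM1 (+0.47, adjusted p = 0.00834), MIS1 (+0.31, adjusted p = 0.0284) and GCV3 (-0.47, adjusted p = 0.0457) among them. A moderated F test in limma over the 3 groups of series 1 called none of the 8 (8.62% of all genes). Its unadjusted p was under 0.05 for 4 of the 8 and for 1553 of all 5775 genes. Of the 8, edgeR called 1 and DESeq2 3, where they called 528 and 1059 of all 5775 genes. The same limma F test over series 2 called all 8, against 65.8% of all genes. Its adjusted p ran from 1.75e-09 for MIS1 to 0.00801 for GCV2.

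The BY4741 cultures of the 2 series differed as well. MTD1, at 277, 287 and 261 RPM in series 1, was lower in series 2 (-0.50, SE 0.08, adjusted p = 8.83e-05, limma on all 21 libraries), as was GCV3 (-0.46, SE 0.12, adjusted p = 0.00668). MIS1 was higher in series 2 by 0.26 (adjusted p = 0.0184) and SHM1 by 0.25 (adjusted p = 0.0299). These 4 of 8 compare with 37.1% of 5927 genes. MTD1 held in all 11 alternatives, while GCV3 lost the call without library 4 (adjusted p = 0.0583), MIS1 without library 1 (0.0589) or 5 (0.181), and SHM1 in 4 of 5 fits that left out a library. Series, preparation and culture cannot be told apart here, so levels of a mutant should be read beside BY4741 of its own series: GCV3 in ΔU was above BY4741 of series 2 but at -0.21 against BY4741 of series 1.

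Other genes of folate, serine and glycine metabolism (22 genes) and of purine synthesis (10 genes) give the setting. Both lists were chosen with earlier results of these data known, so their shares beside all genes are only descriptive. In ΔU, 7 of the 22 rose and 3 fell in limma, with a median of +0.10 against +0.15 over all genes. Of all genes 36.5% rose and 13.2% fell, so these counts lie near the background, and after TMM 2 of the 22 rose and 5 fell. HEM25, the mitochondrial glycine carrier, rose by 0.60 (SE 0.12, adjusted p = 0.000761) and SER3, a phosphoglycerate dehydrogenase of serine synthesis, by 0.53 (SE 0.12, adjusted p = 0.00199). FOL1, of folate synthesis, fell by 0.47 (-0.47, adjusted p = 0.000942) and MET6, which takes methyl groups from folate to make methionine, by 0.39 (-0.39, adjusted p = 0.000735). Of the 10 purine genes 6 fell and none rose, with a median of -0.24, against the same 13.2% lower and 36.5% higher. After TMM 8 of the 10 fell, where 1396 of all 5840 genes did. ADE17, which uses formyl-folate in purine synthesis, was at 1581 and 1528 RPM in BY4741 and at 978, 1098 and 1039 RPM in ΔU, without overlap (-0.58, adjusted p = 1.44e-05), followed by ADE1 (-0.46), ADE57 (-0.40) and ADE6 (-0.36).

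ume6Δ showed larger changes in a few of these neighbours than in the 8 genes. FMT1, which formylates the mitochondrial initiator tRNA with formyl-folate, was at 11.1 and 8.14 RPM in BY4741 and at 34.4, 30.7 and 33.2 RPM in ume6Δ (+1.68, SE 0.12, adjusted p = 7.68e-08, limma). SER33, the paralog of SER3, was at 116 and 96.2 RPM in BY4741 and at 230.3, 235 and 237 RPM in ume6Δ (+1.14, SE 0.08, adjusted p = 7.03e-08). MET13, a methylene-tetrahydrofolate reductase, rose by 1.07 (SE 0.12, adjusted p = 5.41e-06) and RMA1 by 0.46 (SE 0.13, adjusted p = 0.0121). For FMT1, SER33 and MET13 every ume6Δ library lay above BY4741 and the calls held in all 12 alternatives. In all, 5 of the 22 rose and 2 fell, by RPM and by TMM alike. By RPM 23.1% of all genes rose and 11.3% fell, so these counts lie near the background. Of the purine genes 6 of 10 fell and none rose, against 11.3% of all genes lower and 23.1% higher, led by ADE13 (-0.35), ADE1 (-0.33), ADE12 (-0.27) and ADE6 (-0.23), with 8 falling after TMM. ADE12 and ADE6 lost the call without BY4741 library 5.

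**Figure D4:**
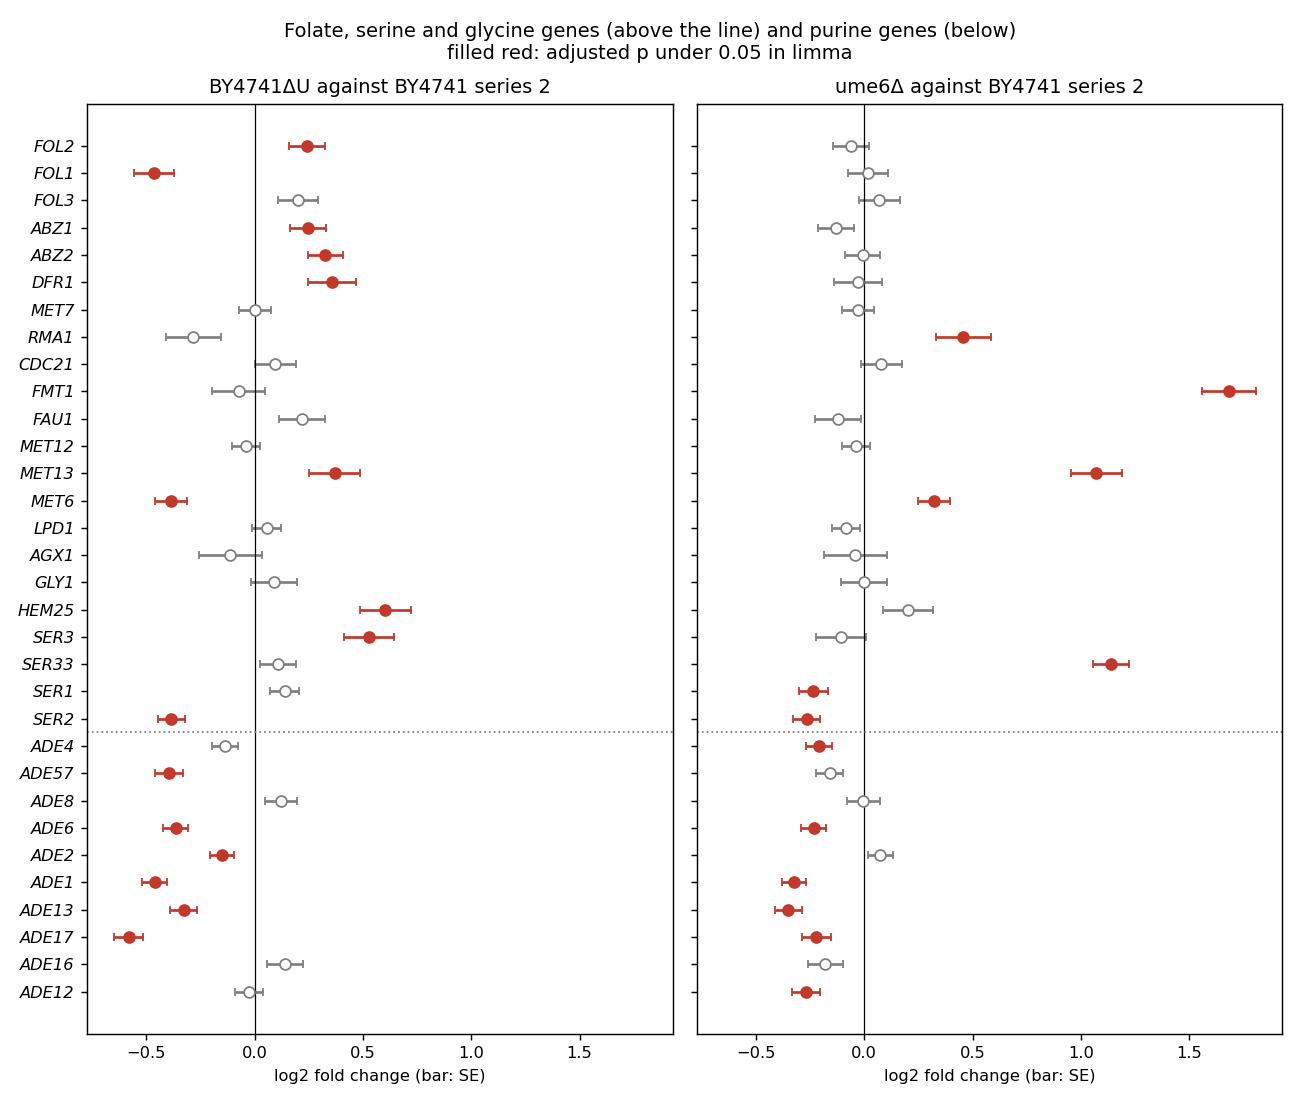
Log2 fold changes (horizontal axes) of 22 folate, serine and glycine genes and 10 purine genes in ΔU and ume6Δ against BY4741 of series 2; points are limma estimates, bars 1 SE, and filled red points have adjusted p under 0.05. FMT1, SER33 and MET13 lie above 1 in ume6Δ, and the 6 called purine genes lie below 0 in each strain.

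In ΔP, 2 of the 22 rose, MET13 (+0.86, adjusted p = 0.0307) and MET6 (+0.70, adjusted p = 0.0333), and of the purine genes ADE13 fell (-0.37, adjusted p = 0.0185), against 5.8% of all genes higher and 3.67% lower. Each of these calls was lost in 3 or more of the 6 fits that left out a library. In Tpho84-Tcyc1 limma called none of either list, edgeR called 1 and DESeq2 5 of the 32, all lower. In limma 4 of 22 and 1 of 10 had an unadjusted p under 0.05, against 1375 of all 5775 genes. Over all 5775 genes edgeR called 508 and DESeq2 839 there. In pho4Δ and pho84Δ limma, edgeR and DESeq2 called none of either list. For pho4Δ 2 of 22 and 5 of 10 had an unadjusted p under 0.05 in limma, against 663 of all 5840 genes. For pho84Δ there were 0 and 0, against 686 of 5840. LPD1, the fourth subunit of glycine cleavage, was not called against BY4741 in any mutant, with folds from -0.14 in pho4Δ to +0.14 in Tpho84-Tcyc1, and among all contrasts run it was called between ΔU and pho4Δ alone (+0.20, adjusted p = 0.0222), a call lost after TMM (+0.08, adjusted p = 0.287). Of the activators, GCN4 rose in ΔU (+0.26, adjusted p = 0.00293, limma), in all fits that left out a library and by DESeq2 (adjusted p = 0.0475). The call was lost after TMM (+0.12, adjusted p = 0.109, limma) and by edgeR (0.126). GCN4 was lower in ume6Δ than in ΔU, also after TMM (-0.23, adjusted p = 0.00287, limma). Between the BY4741 groups GCN4 and PHO2 were higher in series 2 after TMM (adjusted p = 0.00176 and 0.00338, limma), PHO2 losing its call without library 4 (0.065). BAS1 passed in ΔU (+0.24, adjusted p = 0.0425) and ume6Δ (+0.28, adjusted p = 0.0274), but not after TMM (adjusted p = 0.375 and 0.0558) nor without BY4741 library 4 (0.465 and 0.311). PHO2 was called in no mutant against BY4741.

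Across the 21 libraries, with each series centred on its own mean, the genes whose levels ran most like each of the 8 were found among 5485 genes. MIS1 ran closest to FPR4 (Pearson r = 0.968), FSF1 (0.96) and NCL1 (0.96), and SHM2 to ADE17 (0.974), NOP58 (0.96) and PRT1 (0.95). For MTD1 the closest were YLR287C (0.949), BRX1 (0.862) and SUP45 (0.854), and for SHM1 they were SRO9 (0.892), SPF1 (0.89) and FKS1 (0.888). GCV3 ran with YDR524C-B (0.939), COX17 (0.902) and COF1 (0.893), GCV2 with NAM7 (0.882), NUP170 (0.835) and NUP188 (0.825), GCV1 with RFC4 (0.814), NUP85 (0.767) and PRS2 (0.764), and ADE3 with VMA1 (0.904), PFK1 (0.863) and AVL9 (0.86). The glycine cleavage genes thus named no common neighbour. The libraries fall into strain groups and share a scaling to total reads, so these values describe likeness over 21 points that are not independent.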

How the data were processed

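RNA from 21 cultures in 8 groups was sequenced from a stranded kit, per the labels' protocols. The submitters' processing notes name HISAT2, featureCounts and edgeR; versions, roles, strand setting, build and annotation are not given in the sources used here, so reads antisense to a gene may be among its reads. The authors deposited RPM for 7127 lines, 4 of them without values. BY4741 libraries 1 to 3 were placed in series 1, and 4 and 5 in series 2, from title numbers and the design text. Dividing by the RPM of 1 read gave whole reads for 100% of values within 0.01 reads; libraries held 10.98 to 49.8 Mreads, median 17.9.

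In each series limma 3.58.1 was fitted to log2(RPM + 1), with 1 mean per group, on genes with at least 1 RPM in 3 (series 1) or 2 (series 2) libraries. Benjamini-Hochberg adjustment covered all genes tested, and adjusted p under 0.05 was called. The added 1 RPM lowers folds of low genes.

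Alternatives were a pseudocount of 0.5, no filter, TMM rescaling, edgeR 4.0.16 and DESeq2 1.42.0 on recovered reads, fits of 2 groups, each library left out, a block on culture number, and BY4741 of the other series. ΔU against pho4Δ and pho84Δ, and a crossed block, were added after values were seen. Deviations of same-numbered libraries correlated at 0.159 to 0.273 between ΔP and Tpho84-Tcyc1, and at 0.187 and 0.107 between ΔU and pho4Δ, over 2 numbers only. Some differently numbered pairs were as high, at 0.187 for ΔP library 1 with Tpho84-Tcyc1 library 2 and 0.118 for ΔU library 3 with pho4Δ library 2. Over all group pairs, same-numbered correlations ran from -0.273 to 0.341 in series 1 and from -0.253 to 0.187 in series 2. Whether the numbers mark cultures handled together was not tested. The steps were tested on simulated data with a fixed spread and few changed genes. Series 2 is unlike that setting, so the simulation does not show how the steps perform there. All 8 genes are described, with LPD1 and 3 activators, up to 4 called genes of each list and the 3 genes most like each. Members and lists were chosen with earlier results of these data known. Positions and alignments (Biopython 1.88) come from R64.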

Additional observations from a re-analysis of the deposited data

How the results depend on the processing

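Over the 14 comparisons, each call of the 8 genes was recomputed under every alternative. For named genes called in limma or in an alternative, 1305 recomputed folds kept their direction and side of the threshold, 125 lost and 48 gained the call, and 26 changed sign; the cause was not tested.

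Counts of the 8 genes called moved as follows. By DESeq2 they were 1 for ΔP, 1 for Tpho84-Tcyc1, 3 for pho4Δ, 1 for ΔP against Tpho84-Tcyc1 and 3 for the F test of series 1. For Tpho84-Tcyc1 there was 1 also after TMM, by edgeR, with only 2 groups in the fit and with the replicate block, and the F test of series 1 gave 1 after TMM and by edgeR. Over all 5775 genes, TMM and edgeR called 484 and 508 for Tpho84-Tcyc1, and 504 and 528 in that F test. The fit of 2 groups and the block fit called 1325 and 1417 of 5743 genes for Tpho84-Tcyc1. DESeq2 called 910, 839, 71, 78 and 1059 of all genes in the comparisons listed for it, in that order. With only 2 groups in the fit, ΔU gave 3 and ume6Δ 1, where 2193 of 5735 and 1842 of 5788 genes were called over all. The replicate block gave 5 in place of 7 for ΔU against pho4Δ, without GCV1 and GCV2, and 4 in place of 6 for ΔU against pho84Δ, without GCV2 and MTD1. Those block fits called 2757 of 5710 and 2788 of 5720 genes over all. Against BY4741 of the other series, ΔP gave 2, Tpho84-Tcyc1 4, pho4Δ 6 and pho84Δ 6. Over all 5927 genes those fits called 1583, 2019, 2144 and 2345, and the BY4741 groups themselves differed in 2196.

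Over all genes, DESeq2 called 910 for ΔP, 839 for Tpho84-Tcyc1, 71 for pho4Δ, 40 for pho84Δ, 78 for ΔP against Tpho84-Tcyc1, 63 for pho4Δ against pho84Δ and 1059 in the F test of series 1. No filter gave 349 for ΔP, 8 for pho4Δ and 294 in that F test. With only 2 groups in the fit there were 144 for ΔP, 1325 for Tpho84-Tcyc1, 8 for pho4Δ, 11 for pho84Δ and 60 for pho4Δ against pho84Δ. The replicate block gave 345 for ΔP, 1417 for Tpho84-Tcyc1, 52 for ΔP against Tpho84-Tcyc1 and 64 for pho4Δ against pho84Δ. The pho4Δ and pho84Δ numbers crossed (lowest same-number correlation -0.253) gave 168. BY4741 of the other series gave 1583 for ΔP, 2019 for Tpho84-Tcyc1, 3462 for ume6Δ, 2144 for pho4Δ and 2345 for pho84Δ. BY4741 of series 2 shares no numbers with its mutants, so no block was possible there.

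Leaving out 1 library moved the count over all genes between 63 and 1880 for ΔP, 88 and 331 for Tpho84-Tcyc1, 6 and 79 for pho4Δ, 11 and 173 for pho84Δ, 12 and 548 for ΔP against Tpho84-Tcyc1, 18 and 27 for pho4Δ against pho84Δ, 73 and 1938 in the F test of series 1, 1317 and 1847 between the BY4741 groups and 1363 and 1926 for ume6Δ. The 8 genes gave 0 to 4 for ΔP, 2 to 5 for ΔU, 0 to 2 for ume6Δ, 0 to 3 for ΔP against Tpho84-Tcyc1, 0 to 4 in the F test of series 1, 2 to 4 between the BY4741 groups and 4 to 6 for ΔU against pho84Δ. Over all genes the counts ran from 2194 to 2943 for ΔU and from 2007 to 2929 for ΔU against pho84Δ.

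GCV2 in ΔU against BY4741, called under no setting, was also below 0 after TMM (-0.123), by edgeR (-0.123) and DESeq2 (-0.116), and between -0.026 and +0.048 with a library left out. The other sign changes came mostly with BY4741 of the other series as the control. In ΔP they were ADE3 -0.14, GCV3 +0.13, MTD1 +0.25 and SHM1 -0.019, and in Tpho84-Tcyc1 MTD1 +0.44. In ΔU they were ADE3 +0.23, ADE6 +0.15, GCV1 +0.016, GCV3 -0.21 and SHM1 +0.07. In ume6Δ they were ADE3 +0.028, ADE6 +0.28 and MTD1 -0.43, and MTD1 was at -0.23 in pho4Δ and -0.41 in pho84Δ. GCV3 in Tpho84-Tcyc1 was -0.025 after TMM, -0.037 by edgeR and by DESeq2, and between -0.097 and +0.13 with a library left out. ADE3 in pho4Δ was -0.008 after TMM and by edgeR, and between -0.014 and +0.046 with a library left out. In ΔU, ADE3 with a library left out lay between -0.032 and +0.028 against BY4741 and between -0.045 and +0.001 against pho4Δ.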
